A study of Drosophila melanogaster with 2 samples.

Results

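Arc1, Arc2, the pseudogene CR10102 that lies between them, Gagr and Iris are Drosophila melanogaster genes descended from retroelements. They were picked by symbol, 5 of the 17720 entries in each deposited table, and all 5 were found in both tables. The group was drawn up with earlier results of these libraries in view, so the difference between the libraries is described here and not tested. RNA immunoprecipitation (RIP), which recovers RNA together with an antibody-bound protein, was applied to ovaries of Oregon-R, a wild-type strain, taken from young females no later than 12 hours after eclosion, with about 200 females pooled per experiment. A single ovarian lysate was divided, and 1 part received an antibody against the histone demethylase Lsd1 (the Lsd1-RIP library), the other an antibody that its label gives as anti-GFP although the sample is titled IgG-RIP (the IgG-RIP library). Each group is 1 library, so no spread between repeated precipitations is known and no p-value is given. No input library was analysed here.

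Retrotransposons carry a gag gene, whose protein assembles into capsids, and retroviruses add env, whose protein sits in the membrane and fuses it with that of a target cell. Host genomes have kept some of these genes. Arc1 protein, which descends from a gypsy-like Gag, forms capsids that hold RNA, its own mRNA included, and travels between cells in extracellular vesicles at the fly neuromuscular junction. Arc2 is its close relative. Gagr derives from the gag of a gypsy-type element, and Iris from an insect retroviral env. Lsd1 acts in chromatin silencing in the ovary.

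Of the 5 genes, 2 were recovered at a much higher level with the Lsd1 antibody, and Iris was not. Arc2 and Gagr were too low for a comparison. Arc1 was 9.41-fold and CR10102 11.9-fold higher in the Lsd1-RIP library, whereas Iris was at 1.08-fold and Arc2 and Gagr were barely detected in either library. Levels are FPKM, fragments scaled by transcript length and library size, each deposited with a lower and an upper bound. The log2 ratio is that of FPKM + 1, Lsd1-RIP over IgG-RIP, and the added 1 understates the change of genes of low FPKM. An interval on a ratio spans 2 standard errors either way, derived from the deposited bounds. Intervals cover counting error and at most the assignment of fragments to genes.

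**Figure D1:**
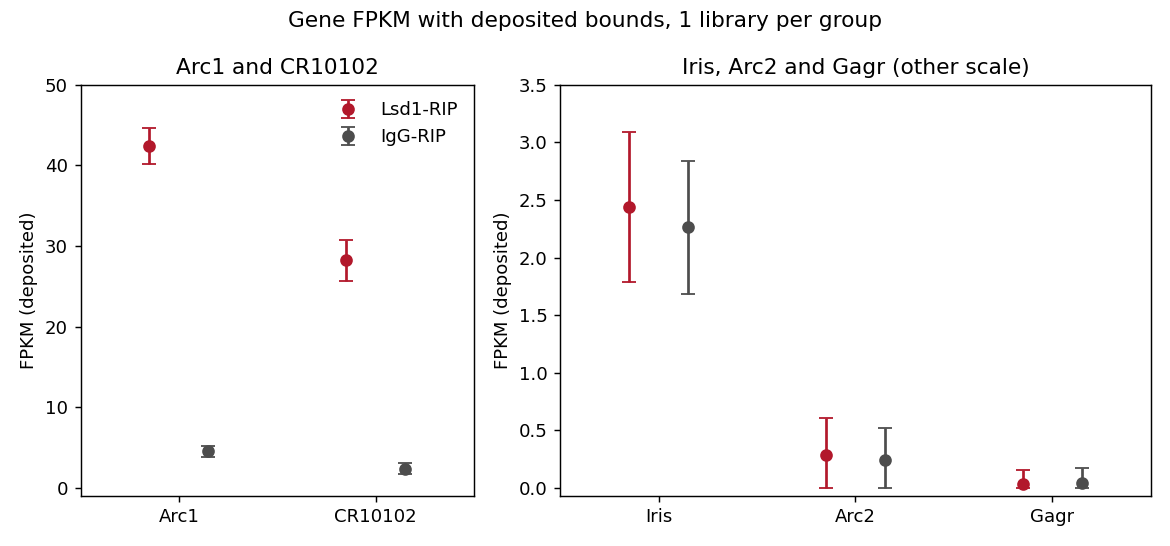
FPKM of the 5 genes in the Lsd1-RIP (red) and the IgG-RIP library (grey), 1 library per group, with the deposited bounds as bars. Arc1 stood at 42.4 against 4.51 and CR10102 at 28.2 against 2.37, while the bounds of Iris, Arc2 and Gagr, drawn on another scale, overlap between the libraries.

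The Gag-like gene Arc1 (FBgn0033926, protein-coding, 2R:14357927-14360297 on dm6) had an FPKM of 42.4 in the Lsd1-RIP library (bounds 40.2 to 44.6) and of 4.51 in the IgG-RIP library (3.82 to 5.19). The bounds are far apart. The ratio of FPKM was 9.41 (interval 8.02 to 11.0), and the log2 ratio was 2.98 (2.79 to 3.17). An approximate number of fragments can be derived from the bounds, and for Arc1 it was 1447 in the Lsd1-RIP and 175 in the IgG-RIP library. Per 100000 approximate fragments outside ribosomal RNA loci, Arc1 took 120 in the Lsd1-RIP library and 16.8 in the IgG-RIP library. By FPKM it ranked at place 235 of 9542 genes listed above 0 in the Lsd1-RIP library, within the top 2.46%. In the IgG-RIP library it ranked at place 1851 of 9435, within the top 19.6%.

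The pseudogene CR10102 (FBgn0033927, 2R:14360433-14361780), which the RefSeq gene table also lists under the names Arc3 and dArc3, showed a difference of similar size. Its FPKM was 28.2 in the Lsd1-RIP library (bounds 25.7 to 30.7) and 2.37 in the IgG-RIP library (1.69 to 3.05), again with no overlap. The ratio was 11.9 (interval 8.82 to 16.1), and the log2 ratio was 3.12 (2.80 to 3.43). These values rest on about 497 fragments in the Lsd1-RIP and 49.0 in the IgG-RIP library. CR10102 ranked at place 353 in the Lsd1-RIP library and at place 3398 in the IgG-RIP library.

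Within each library CR10102 lay below Arc1 per length. The CR10102 to Arc1 ratio of FPKM was 0.67 in the Lsd1-RIP library (interval 0.60 to 0.74) and 0.53 in the IgG-RIP library (0.38 to 0.73), and these intervals overlap. The fold of CR10102 over that of Arc1 was 1.26 (0.90 to 1.78), so the 2 folds could not be told apart at this depth. Arc1 and CR10102 are related by descent, and how fragments that match several loci were assigned is not given in the sources used here, so the division of fragments between them is uncertain. Summed over both genes there were about 1945 fragments in the Lsd1-RIP and 224 in the IgG-RIP library (log2 ratio 2.91, scaled by fragments outside ribosomal RNA loci).

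Arc2 (FBgn0033928, protein-coding, 2R:14361924-14362825), the other Gag-like gene, had an FPKM of 0.280 in the Lsd1-RIP library (bounds 0 to 0.602) and of 0.239 in the IgG-RIP library (0 to 0.516). Each value corresponds to 3 fragments. Arc2 is a close relative of Arc1, so the unknown assignment of fragments that match several loci bears on this number too. The ratio was 1.17, with a 95% interval of 0.156 to 8.72 (exact, Clopper-Pearson, on these fragments, covering counting error only). At this depth most differences in either direction would go unseen, and the interval overlaps that of Arc1, 8.02 to 11.0. The log2 ratio was 0.05, and it became -0.28 when the ratios were centred on the median of all genes and -0.12 with the libraries rescaled to equal sums.

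The gag-derived gene Gagr (FBgn0036627, protein-coding, 3L:16394586-16396880) was close to 0 in both libraries. It had an FPKM of 0.030 in the Lsd1-RIP library (bounds 0 to 0.150) and of 0.042 in the IgG-RIP library (0 to 0.174). By the bounds these correspond to 0.253 approximate fragments in the Lsd1-RIP and 0.406 in the IgG-RIP library, and at the other 4 genes' median number of fragments per FPKM and kb of locus to 0.902 in the Lsd1-RIP and 1.48 in the IgG-RIP library. Either way no ratio can be read from them. All 2295 nt of the Gagr locus lie inside the locus of CG44836, which had 0.099 FPKM in the Lsd1-RIP and 0.106 in the IgG-RIP library. Libraries of this kind do not mark strand, and fragments of overlapping genes cannot always be separated. Summed over both genes there were, by the bounds, 1.16 approximate fragments in the Lsd1-RIP and 1.73 in the IgG-RIP library, too few for any comparison.

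The env-derived gene Iris (FBgn0031305, protein-coding, 2L:1132332-1134098) was readily detected, and at a similar level in both libraries. It had an FPKM of 2.44 in the Lsd1-RIP library (bounds 1.78 to 3.09) and of 2.26 in the IgG-RIP library (1.68 to 2.84). The bounds overlap. The ratio of FPKM was 1.08 (interval 0.744 to 1.56), from about 55.6 fragments in the Lsd1-RIP and 61.2 in the IgG-RIP library. The log2 ratio was 0.08 (-0.30 to 0.45), and its sign turned to -0.25 when centred on the median of all genes, -0.27 with the libraries rescaled to equal sums and -0.35 by approximate fragments. The fold of Arc1 was 8.73 times that of Iris (interval 5.83 to 13.1), and the fold of CR10102 was 11.0 times that of Iris (6.86 to 17.8).

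The order of the levels per length was the same in both libraries, namely Arc1, CR10102, Iris, Arc2 and Gagr. Not every step in it is resolved. In the IgG-RIP library CR10102 and Iris differed by less than their bounds (ratio of FPKM 1.05, interval 0.714 to 1.54), while in the Lsd1-RIP library CR10102 was 11.6 times the level of Iris (8.72 to 15.3). Iris was 8.72 times the level of Arc2 in the Lsd1-RIP library (2.67 to 28.5) and 9.45 times in the IgG-RIP library (2.90 to 30.8). The bounds of Arc2 and Gagr overlap in both libraries.

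**Figure D2:**
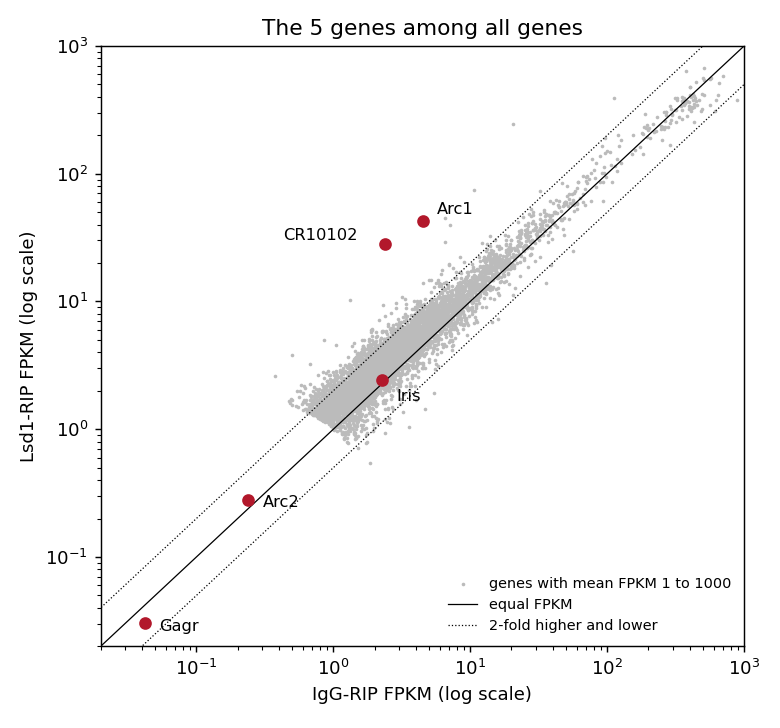
FPKM in the Lsd1-RIP library (vertical) against the IgG-RIP library (horizontal), both on log scales, for the 5 genes (red) and for genes with a mean FPKM of 1 to 1000 (grey). Arc1 and CR10102 lie far above the upper dotted line of 2-fold, and Iris, Arc2 and Gagr lie between the dotted lines.

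The ratios of all genes give the background for these values. With a mean FPKM of 1 or more and an accepted estimate in both libraries, 6025 genes could be compared, Arc1, CR10102 and Iris among them. Over them the log2 ratio had a median of 0.32 and quartiles of 0.13 and 0.52, an offset of 1.25-fold towards the Lsd1-RIP library. Of these genes 2.12% had a value of 1 or more, called 2-fold higher, and 0.697% a value of -1 or less. Centred on the median, 62 genes were higher and 63 lower, against 128 and 42 as deposited, so the share of higher calls among all calls was 49.6% centred and 75.3% as deposited. Of the 128, 102 were listed above 0 in both libraries. The rest were at 0 in the IgG-RIP library, where a 0 can be a failed estimate. Of the 5 genes, Arc1 and CR10102 were 2-fold higher, none was 2-fold lower, and Arc2 and Gagr were under the minimum FPKM. Bounds that did not overlap, with the Lsd1-RIP library higher, were found for Arc1 and CR10102 and for 36.1% of the genes compared, and with the IgG-RIP library higher for none of the 5 and for 1.64%. The genes were chosen with these ratios known, and nothing is read from their share.

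Among the 5964 genes compared and listed above 0 in both libraries, CR10102 had the second and Arc1 the third highest log2 ratio, and Iris was at place 4784. Only hpRNA:CR33940, a hairpin RNA, lay above them. Arc1 held place 1 of 5839 protein-coding genes of that kind, and 1.67% of all protein-coding genes compared were 2-fold higher. The protein-coding gene at the next place, Bre1, which encodes a ubiquitin ligase for histone H2B, had an FPKM of 9.35 in the Lsd1-RIP and 2.29 in the IgG-RIP library (log2 ratio 1.65). Bre1 was singled out after its value was seen. Protein-coding genes that the IgG-RIP library lists at 0, where a 0 can be a failed estimate, are not in this order. Of these, 3 had log2 ratios above that of Arc1 and 16 above that of Bre1.

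CR10102 held place 1 of 24 pseudogenes compared, whose median log2 ratio was 0.25 and of which 8.33% were 2-fold higher. Pseudogene CR42842, singled out afterwards, came next at 2.70, and its locus overlaps that of a hairpin RNA. The pseudogene His-Psi:CR33802 at the third place had 0.62, and the lowest, CR31054, had -1.14. The other 23 pseudogenes included 21 within 2-fold.

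The genes with levels most like those of each member were found by the distance between pairs of log2(FPKM + 1) values over the 2 libraries. Nearest to Arc1 were 3 hairpin RNAs, hpRNA:CR32207 at a distance of 0.46, hpRNA:CR32205 at 0.56 and hpRNA:CR18854 at 0.69. In this order their FPKM was 45.2, 39.5 and 29.2 in the Lsd1-RIP library, against 6.54, 7.08 and 6.55 in the IgG-RIP library. The nearest gene to CR10102 was Arc1 at 0.91, followed by hpRNA:CR18854 at 1.16 and spen, which encodes an RNA-binding transcriptional regulator, at 1.19. The CR10102 distances were the longest of the 5 genes. Iris was nearest to Odj (0.0051), mad2, a spindle checkpoint gene (0.0096), and Atg4a, an autophagy protease gene (0.011). Arc2 was nearest to eIF4E6, CG34316 and Gli, and Gagr to sff, slo and CG31016, all at distances from 0.0025 to 0.0053. With 1 FPKM added, genes near 0 lie close together whatever their ratio, so the short distances of Arc2 and Gagr say little.

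Among the genes within 20 kb on either side that could be compared, none shared the high ratios of Arc1 and CR10102, with 1 FPKM added. Arc2 and most genes of this window were too low to be compared. Arc1, CR10102 and Arc2 occupy 4899 nt, with 135 nt between the loci of Arc1 and CR10102 and 143 nt between those of CR10102 and Arc2. CG8617, 645 nt from Arc1 on the outer side, had an FPKM of 1.99 in the Lsd1-RIP and 0.926 in the IgG-RIP library (log2 ratio 0.64, interval 0.18 to 1.09). Tfb1, a gene for a subunit of the general transcription factor TFIIH, lies 222 nt beyond Arc2, and had 8.94 FPKM in the Lsd1-RIP and 8.73 in the IgG-RIP library (log2 ratio 0.03, interval -0.20 to 0.26). Further out, CG8613 was at 0.14 and Shrm at 0.52. Of the 15 genes in this window 4 could be compared, none of them past 2-fold, and 8, among them a row of odorant-binding protein genes, were listed at 0 in both libraries. Arc2 was thus at 3 fragments per library, 143 nt from a locus with about 497 in the Lsd1-RIP library. How fragments that match several loci were assigned is not known for either locus.

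**Figure D3:**
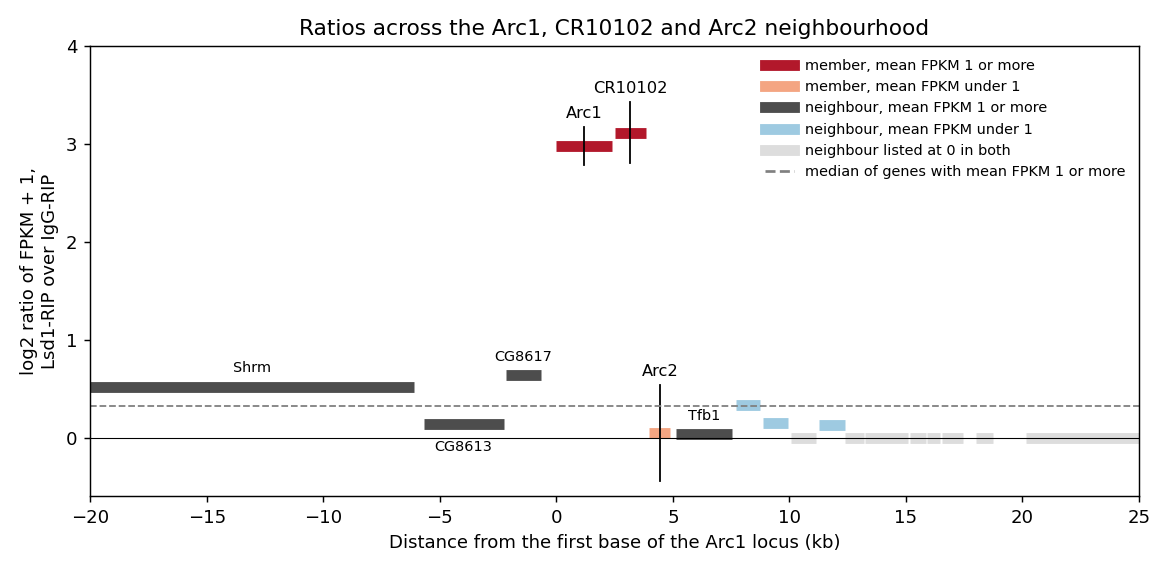
Log2 ratio of FPKM + 1, Lsd1-RIP over IgG-RIP (vertical), against distance from the first base of the Arc1 locus in kb (horizontal), each bar being the locus of a gene and the thin lines the intervals of the 3 Arc loci. Arc1 at 2.98 and CR10102 at 3.12 stand above all others drawn, of which CG8617 at 0.64 is the highest.

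Among genes that could be compared, the surroundings of Gagr and Iris held none past 2-fold either. Around Gagr 6 of 8 genes could be compared, with a median of 0.31 and a range from 0.01 for Agpat4, a gene for an acyltransferase of phospholipid synthesis, to 0.64 for fax. The nearest loci outside CG44836 were RAF2 at 0.42 on one side and fax on the other. Around Iris 6 of 11 could be compared, with a median of 0.15 and a range from -0.16 for Vps29, a retromer subunit gene, to 0.94 for Tfb4, another TFIIH subunit gene. The locus of CG4552 overlaps that of Iris by 80 nt, and CG4552 had 1.54 FPKM in the Lsd1-RIP and 1.34 in the IgG-RIP library (log2 ratio 0.12). CG4577, 594 nt away on the other side, was at 0.027 FPKM in the Lsd1-RIP and 0.023 in the IgG-RIP library. Over all 34 neighbours 16 could be compared, with 0 higher and 0 lower, against 2.12% and 0.697% of all genes. With 0.1 FPKM added in place of 1, CG8617 (1.03) and Tfb4 (1.19) passed 2-fold.

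The bounds of these genes can be compared with the length of their loci. Fragments per FPKM and per kb of locus were 14.4 for Arc1, 13.1 for CR10102, 12.9 for Iris and 11.9 for Arc2 in the Lsd1-RIP library, and 16.4, 15.3, 15.3 and 13.9 in the IgG-RIP library. These 4 genes thus have close to the same number per length. Gagr, nested in another locus, had 3.65 in the Lsd1-RIP and 4.22 in the IgG-RIP library. The reason for this lower number was not tested. FPKM is scaled by transcript length, which was not compared with the length of the locus. If the Gagr bounds hold more than counting error, the number of fragments derived from them is too low. Between the libraries, fragments per FPKM stood in a ratio of 0.88 for Arc1, 0.85 for CR10102, 0.86 for Arc2, 0.87 for Gagr and 0.84 for Iris, against a median of 0.85 over genes with at least 20 fragments in each.

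The machinery by which Arc1 capsids leave cells was represented by a list of genes of the ESCRT complexes, which bud membranes away from the cytoplasm, and of vesicle release. Of its 23 genes 22 were found and 20 could be compared, and none was 2-fold higher or lower. The list's median log2 ratio was 0.22, against 0.32 for all genes. Rab35, a small GTPase gene of endosomal traffic, was highest, with 5.57 FPKM in the Lsd1-RIP and 3.01 in the IgG-RIP library (log2 ratio 0.71, interval 0.41 to 1.01). The ESCRT-II subunit gene lsn was lowest, with 1.58 FPKM in the Lsd1-RIP and 3.09 in the IgG-RIP library (log2 ratio -0.66, interval -1.21 to -0.11). Bounds higher in the Lsd1-RIP library and not overlapping were found for Rab35 and for Rab11, a recycling endosome GTPase gene named after its values were seen, against 36.1% of all genes.

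Gagr has been linked to stress signalling through the JAK-STAT pathway, in which cytokines of the upd family activate the receptor dome, the kinase hop and the transcription factor Stat92E. Of 12 such genes 5 could be compared, none past 2-fold, with a median log2 ratio of 0.56 against 0.32 for all genes. Stat92E was highest, with 8.99 FPKM in the Lsd1-RIP and 4.74 in the IgG-RIP library (log2 ratio 0.80). Socs36E, a feedback inhibitor, was lowest at 0.21. Bounds did not overlap for 4 of the 5, higher in the Lsd1-RIP library, against 36.1% of all genes. The upd genes were at 0.282 FPKM or less in both libraries, and upd2, et and TotA were listed at 0 in both.

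Genes whose DNA-binding domains are related to those of transposases are another kind of host gene akin to mobile elements. Of 8 listed, 2 could be compared and neither was past 2-fold. psq, a regulator needed in oogenesis, had 10.9 FPKM in the Lsd1-RIP and 6.81 in the IgG-RIP library (log2 ratio 0.61, interval 0.46 to 0.75). Dref, an activator of replication genes, had 2.44 FPKM in the Lsd1-RIP and 2.15 in the IgG-RIP library (log2 ratio 0.13, interval -0.17 to 0.42). cag, dan and danr were listed at 0 in both.

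**Figure D4:**
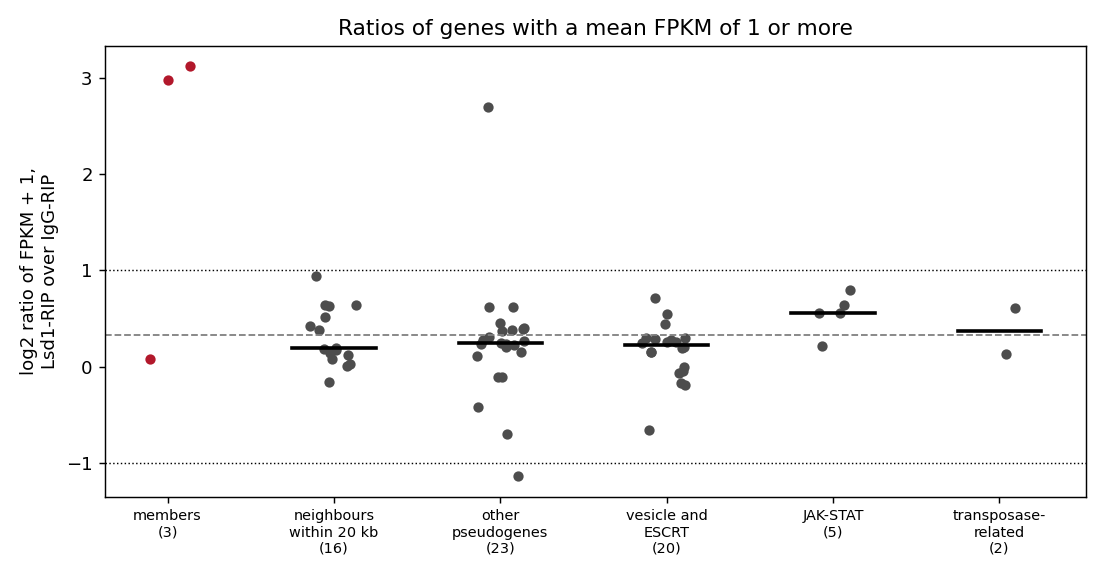
Log2 ratio of FPKM + 1, Lsd1-RIP over IgG-RIP, for each gene with a mean FPKM of 1 or more in 6 groups, with the number of genes in brackets; thick bars are medians (not drawn for the members), the dashed line is the all-gene median of 0.32 and the dotted lines mark 2-fold. Arc1 and CR10102 lie near 3, as does 1 other pseudogene, CR42842 at 2.70, and each gene of the neighbour, vesicle, JAK-STAT and transposase-related groups lies within 2-fold.

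The tissue label was checked on marker genes. All 8 germline markers could be compared, and their summed FPKM was 264 in the Lsd1-RIP and 142 in the IgG-RIP library, with osk highest and bam lowest by mean. Their median log2 ratio was 0.86, against 0.32 for all genes. Of the 8, nos (1.34) and orb (1.04) were 2-fold higher, against 2.12% of all genes. So was grk (2.07), but the IgG-RIP library lists it at 0, which can be a failed estimate. The mean of grk met the minimum FPKM only through the Lsd1-RIP library. The same holds for bam, with 1.42 FPKM in the Lsd1-RIP and 0.654 in the IgG-RIP library. Both grk and bam are part of the sum, median and counts given here. All 8 had bounds that did not overlap, higher in the Lsd1-RIP library, against 36.1% of all genes. All 7 markers of follicle and somatic ovarian cells were present too, summing to 52.2 in the Lsd1-RIP and 31.8 in the IgG-RIP library, with a median log2 ratio of 0.62, none past 2-fold and 4 with such bounds. Arc1 is best known from neurons, whose 9 markers summed to 0.517 FPKM in the Lsd1-RIP and 0.291 in the IgG-RIP library, with elav highest at 0.204 in the Lsd1-RIP and 0.175 in the IgG-RIP library. None reached a mean FPKM of 1, and Syt1, VAChT and Rdl were listed at 0 in both libraries. Hemocyte markers, 4 in all, summed to 0.850 in the Lsd1-RIP and 0.515 in the IgG-RIP library. The sum of the 5 muscle markers went the other way, at 48.5 in the Lsd1-RIP and 70.5 in the IgG-RIP library. The largest difference was that of up, with 19.3 FPKM in the Lsd1-RIP and 38.6 in the IgG-RIP library. Mhc and wupA were lower in the Lsd1-RIP library too. Mlc2 was higher there (13.3 against 12.0), as was Act88F (0.549 against 0.235), which was under the minimum FPKM. Of the 5 muscle markers, 4 could be compared, with a median log2 ratio of -0.36 and none past 2-fold. Bounds that did not overlap, higher in the IgG-RIP library, were found for 2 of the 4, against 1.64% of all genes. The 5 gut markers summed to 19.2 in the Lsd1-RIP and 12.7 in the IgG-RIP library. The 6 fat body markers, mostly Yp1, which follicle cells express as well, summed to 140 in the Lsd1-RIP and 122 in the IgG-RIP library. The part of these other tissues in the Arc1 and CR10102 values was not tested. In RNA precipitated from a lysate of whole ovaries, fewer cells of a type, less RNA per cell and less recovery with the antibody cannot be told apart.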

How the data were processed

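RNA from 2 RIP libraries of ovarian lysate was analysed, 1 per group. The values are FPKM as deposited by the authors, with bounds and a status column, per the file headers. Cufflinks, SAMtools 0.1.18.0, Bowtie2 2.0.6.0 and the build dm6 appear in the submitters' processing notes without roles. Annotation and options are not stated there. Poly(A) selection was skipped, per the labels' protocols.

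Members and gene lists were chosen with earlier results of these data known. Named were the 5 members, the neighbours that overlap or lie nearest, and the 3 genes nearest in level. Genes past 2-fold among neighbours and lists were named too, as were the extremes by log2 ratio of each list other than markers. Of the germline markers the extremes by mean FPKM were named. For neurons and fat body the highest by mean FPKM was named, with the neuron markers listed at 0. The muscle markers were all named, after their values were seen. Markers of the remaining tissues were not named. The 3 germline markers past 2-fold are named outside this rule, after their values were seen. Genes were compared where both tables gave status OK and the FPKM averaged at least 1. Approximate fragments were taken as (2 × FPKM / (upper bound − FPKM)) squared, and those outside ribosomal RNA loci numbered 1201797 in the Lsd1-RIP and 1039524 in the IgG-RIP library. For Arc2 they were whole within 0.02. Biotypes came from the RefSeq table of Release 6, which matched 17654 of 17720 entries. Of these entries 25, with status HIDATA, had too many fragments for an estimate. Python 3.11.15, pandas 2.3.3 and scipy 1.17.1 were used, and the computation was tested on simulated data. Alternatives were other pseudocounts, other minimum FPKM, centring, equal sums and approximate fragments.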

Additional observations from a re-analysis of the deposited data

How the results depend on the processing

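The log2 ratios of the 5 genes were recomputed under 23 alternatives in all, and 14 values stayed within the interval of the value reported. Arc1 was at 3.21 and CR10102 at 3.52 with 0.1 FPKM added, at 3.23 and 3.57 with nothing added, and at 2.65 and 2.79 when centred on the all-gene median. Both were 2-fold higher under each of their 5 alternatives. Gagr was at -0.47 with nothing added and -0.34 when centred, on too few fragments for any comparison, and Iris at -0.35 by approximate fragments. By that measure Arc2 and Gagr gave no value, having fewer than 20 fragments. The count of all genes 2-fold higher, 128, was 70 with a mean FPKM of 5 or more, 476 with 0.1 FPKM added and 62 when centred. The count of neighbours 2-fold higher, 0, was 2 with 0.1 FPKM added. The count of members, 2, and that of the vesicle list, 0, were unchanged under no minimum FPKM, a minimum of 5, 0.1 FPKM added and centring. The causes of these shifts were not tested. No paired analysis was possible because each group has 1 library. Depth limits Arc2 and Gagr most.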

Other observations

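Arc1 and CR10102 lie side by side. Of the 102 genes that were 2-fold higher in the Lsd1-RIP library and listed above 0 in both libraries, 8 had another such gene within 1000 nt, which makes 4 pairs. In 3 of the pairs the loci overlap: klar (log2 ratio 1.02) with CG34267 (1.40), hpRNA:CR32207 (2.62) with CR42842 (2.70), and hpRNA:CR46342 (2.27) with CG44774 (1.50). Arc1 with CR10102 was the only pair of the 4 whose loci do not overlap. These pairs were looked for after the values of Arc1 and CR10102 were known. How many of all genes compared have another within 1000 nt was not computed, so nothing is read from the number of pairs.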
